A study of Mus musculus with 24 samples.

Results

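The MiT/TFE family of transcription factors comprises 4 genes, Tfeb, Tfe3, Mitf and Tfec, which were found by symbol among the 55487 genes of the deposited count table. Their 42 annotated transcripts, of 142699 quantified, were 15 for Tfeb, 14 for Tfe3, 8 for Mitf and 5 for Tfec. Bulk mRNA-Seq was done on mouse embryonic fibroblasts (MEFs), in 24 libraries that form 6 groups of 4. The groups are wild-type (WT) cells and cells lacking both catalytic AMPK subunits (AMPK KO, that is prkaa1 prkaa2 double knockout), each treated with DMSO as vehicle, with MK-8722 or with torin1. MK-8722 is a direct activator of AMPK, the kinase that responds to energy depletion, and torin1 is an ATP-competitive inhibitor of the kinase MTOR. The design asks whether AMPK is needed for the response to each compound. The labels state neither dose nor duration. Both genotypes came as cultured lines from another laboratory, and whether each line is a single clone is not given in the sources used here. WT cells were used at passages 12 to 15 and AMPK KO cells at passages 16 to 19, so passage and genotype cannot be told apart. The study's methods state in general that experiments were repeated independently, but the labels do not tie libraries to separate experiments. The 4 libraries of a group carry different passages, and each passage of a genotype holds a library of every treatment. The libraries are thus matched by passage within a genotype, whereas replicate numbers do not follow passage. The main tests left this match out, and a block for passage was fitted as an alternative. P-values of the main tests measure the spread between these libraries, passage included, which may be partly technical.

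TFEB, TFE3, MITF and TFEC are basic helix-loop-helix leucine zipper proteins that bind as homodimers or heterodimers to E-box sequences of the CLEAR type (CACGTG) in the promoters of lysosomal and autophagy genes. In fed cells MTORC1 phosphorylates TFEB and TFE3 at the lysosome, 14-3-3 proteins hold the phosphorylated forms in the cytosol, and loss of those phosphates sends them to the nucleus. That control acts on protein, and the values here are mRNA levels. MITF is best known for the melanocyte lineage and, with TFE3 and TFEC, for osteoclasts and macrophages, and its gene has several first exons that give tissue-specific isoforms.

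Total counts were 26900240 to 34192685 per library, and RNA integrity numbers were 9.7 to 10.0. Levels of 1 gene across libraries are given as CPM, in which TMM factors put all libraries on 1 depth, and levels of different genes are compared as TPM, which corrects for transcript length. A gene was called changed at an adjusted p under 0.05 in edgeR's quasi-likelihood test across 15828 genes and a fold change of at least 1.2. All 7 fibroblast markers were detected, with a summed level of 11100 to 17100 CPM in WT and 4770 to 6830 CPM in AMPK KO libraries, although Thy1 reached only 2.28 CPM. The collagen markers spread widely over the 24 libraries, from 10.2 to 3290 CPM for Col1a2, 4.85 to 183 for Col3a1 and 319 to 4840 for Col1a1. The melanocyte markers Tyr and Tyrp1 and the macrophage marker Adgre1 had 0 counts in all 24 libraries. The 5 melanocyte markers summed to at most 1.68 CPM and the 6 macrophage or osteoclast markers to at most 1.28 CPM. In bulk RNA, fewer cells of a type and less RNA per cell cannot be told apart. The totals of the deleted genes do not by themselves show the deletion, as Prkaa1 was 80.9 ± 2.00 CPM (SD, n = 4) in WT and 70.9 ± 2.95 CPM in AMPK KO cells with DMSO, and Prkaa2 was 4.74 ± 1.12 and 3.21 ± 0.970 CPM. Which exons the alleles lack is not given in the sources used here.

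The isoforms of these genes differ at their first exons, so the first 30 coding bases of the transcripts that the results turn on are shown, read from GENCODE M21 transcripts (GRCm38) with the start codon in capitals. Tfe3 has an upstream start of transcription near base 7762560 of chromosome X and a downstream start near base 7763943. Tfe3-201 (572 codons) and Tfe3-202 (537 codons) begin coding in the upstream first exon, whereas Tfe3-204 (467 codons) and Tfe3-205 (432 codons) start downstream and lack that stretch, as does Tfe3-206 (467 codons), which is transcribed from the upstream start. Tfeb-202 (475 codons) and Tfeb-201 (534 codons), and Mitf-202 (526 codons) and Mitf-201 (419 codons), likewise open with different codons.
Tfe3-201: ATGtctcatgcagccgagccagctcgggac
Tfe3-204: ATGtcatcttcttcatcacgggtcttgctg
Tfeb-202: ATGgcgtcacgcatcgggctgcgcatgcag
Tfeb-201: ATGgctcagctcgctcagtggtcttgggca
Mitf-202: ATGcagtccgaatcgggaatcgtggcggat
Mitf-201: ATGctggaaatgctagaatacagtcactac

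Mitf-202 and Mitf-207 share their start and differ in 1 coding stretch of 18 bases, or 6 codons, on chromosome 6 from base 98006123 to 98006140 of the plus strand. It is the known alternative segment before the basic domain of MITF and is present in Mitf-202 and absent from Mitf-207 (520 codons). It is shown in capitals, followed by the next 12 bases that both share.
Mitf-202 segment: CGTGTATTTTCCCCACAGagtctgaagcaa

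The 250 bases before the RefSeq starts at the start sites that carried most of each gene's TPM are shown next, because the levels below are read by start site. They are windows on GRCm38.p6, and capitals mark the GC box GGGCGG and the CCAAT box on either strand. A RefSeq start can differ from the Ensembl starts of the same site. For the upstream Tfe3 site it is base 7762661, so part of that window lies past base 7762560, where the site's first Ensembl transcript starts.
Tfeb, start of Tfeb-202, chr17:47736787-47737036, plus strand: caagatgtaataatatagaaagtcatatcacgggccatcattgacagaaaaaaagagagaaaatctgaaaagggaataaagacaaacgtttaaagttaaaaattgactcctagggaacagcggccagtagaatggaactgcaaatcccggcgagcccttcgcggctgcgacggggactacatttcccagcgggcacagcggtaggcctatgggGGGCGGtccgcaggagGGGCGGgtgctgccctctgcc
Tfe3, upstream start, chrX:7762411-7762660, plus strand: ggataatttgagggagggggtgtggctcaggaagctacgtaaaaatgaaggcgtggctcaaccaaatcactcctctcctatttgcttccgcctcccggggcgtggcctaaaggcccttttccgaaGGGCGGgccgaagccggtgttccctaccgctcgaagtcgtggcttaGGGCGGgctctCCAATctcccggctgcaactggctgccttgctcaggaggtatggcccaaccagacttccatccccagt
Tfe3, downstream start, chrX:7763693-7763942, plus strand: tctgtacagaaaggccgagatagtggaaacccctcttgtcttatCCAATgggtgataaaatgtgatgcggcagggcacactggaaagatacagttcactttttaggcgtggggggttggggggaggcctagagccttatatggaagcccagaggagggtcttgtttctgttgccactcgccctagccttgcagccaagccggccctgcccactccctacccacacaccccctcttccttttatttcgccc
Mitf, start of Mitf-202 and Mitf-207, chr6:97806808-97807057, plus strand: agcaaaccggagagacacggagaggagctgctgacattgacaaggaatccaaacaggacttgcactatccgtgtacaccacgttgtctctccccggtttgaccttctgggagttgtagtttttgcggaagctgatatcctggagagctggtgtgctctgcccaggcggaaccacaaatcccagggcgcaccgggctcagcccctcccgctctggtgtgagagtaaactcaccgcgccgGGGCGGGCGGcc

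RefSeq gave 9 such windows for the 4 genes, and all 9 were searched on both strands for 5 motifs. None of the 9 held the E-box CACGTG, which 6.02% of all 32851 mouse windows of that length hold. None held the related E-box CATGTG, which 12.3% hold. The cyclic AMP response element TGACGTCA is in 1.55% of all windows. It was found 153 bases before the RefSeq start at base 97991783, near that of Mitf-201, the start used in melanocytes. GC boxes, in 32.7% of all windows, stood 37 and 21 bases before the RefSeq start at base 47737037, near that of Tfeb-202. In the upstream Tfe3 window they stood 125 and 79 bases before the RefSeq start at base 7762661. In the Mitf-202 window they stood 12 and 8 bases before the RefSeq start at base 97807058, where the 2 matches overlap. CCAAT, in 33.8% of all windows, stood 68 bases before the RefSeq start at base 7762661 and 206 bases before that at base 7763943, in the 2 Tfe3 windows. Windows not shown held further matches, a GC box 196 bases before the Tfeb start at base 47737931, another 73 bases before that at base 47785744, and a CCAAT box on the other strand 54 bases before the Mitf start at base 97929817. These are matches of letters, not binding sites.

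Tfe3 was the most abundant member by far in every group. On the TPM scale the group means were 41.9 to 58.3 for Tfe3, 5.49 to 9.70 for Tfeb and 1.48 to 2.01 for Mitf. Tfe3 made up 87.2% ± 0.903 (SD, n = 4) of the family's TPM in WT cells with DMSO and 80.8% ± 2.03 with torin1, and Tfeb made up 10.5% ± 0.972 and 15.3% ± 1.91. The TPM ratio of Tfe3 to Tfeb was 7.28 to 9.09 in the WT libraries with DMSO and 4.75 to 6.62 in those with torin1, and these ranges do not overlap. In AMPK KO cells the ratio was 4.87 to 7.09 with DMSO and 4.94 to 5.73 with torin1, and these overlap. The summed TPM of the family was 65.9 ± 1.08 in WT with DMSO, 54.3 ± 1.65 with MK-8722 and 51.9 ± 2.41 with torin1.

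Tfec, whose product lacks the acidic activation domain of its relatives and is known from macrophages, was in effect not detected. A single count was assigned to it, in AMPK KO DMSO replicate 1, and the other 23 libraries had 0. A count of 0 allows up to 3 counts, or 0.0877 to 0.112 CPM depending on the library, by counting error alone. Tfec did not pass the filter on low counts and was not tested, so 3 of the 4 members were tested.

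Tfeb (ENSMUSG00000023990, chromosome 17, bases 47737030 to 47792419, plus strand) encodes the member most studied as the regulator of lysosome biogenesis. In WT cells with DMSO its replicates 1 to 4 were at 10.9, 10.2, 9.47 and 8.76 CPM. With MK-8722 they were at 7.71, 6.65, 7.93 and 8.02 CPM, and with torin1 at 11.3, 11.2, 9.75 and 8.70 CPM. All 4 libraries with MK-8722 lay below all 4 with DMSO, while those with torin1 overlapped them.

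MK-8722 lowered Tfeb in WT cells by 0.38 on the log2 scale (SE 0.10), a ratio of 0.770, with an adjusted p of 0.0064 in edgeR. Of the 3 members tested, 2 were called in that comparison, beside 15.7% of all genes tested, and 5.66% of all genes were called lower. In 25.5% of all genes the 4 and 4 values did not overlap. Torin1 left Tfeb in WT cells at a log2 difference of 0.06 (95% interval -0.14 to 0.26, adjusted p = 0.63 in edgeR). Torin1 against MK-8722 in WT cells gave a difference of 0.44 (SE 0.10, adjusted p = 0.00062 in edgeR), higher with torin1 in 4 of 4 libraries, where 48.9% of all genes did not overlap.

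AMPK KO cells showed a different order of the treatment means, with torin1 lowest, while MK-8722 was below DMSO in both genotypes. With DMSO replicates 1 to 4 were at 13.4, 12.7, 10.4 and 13.9 CPM, with MK-8722 at 12.1, 10.6, 11.5 and 12.3 CPM, and with torin1 at 8.63, 9.18, 9.74 and 9.13 CPM. Here the torin1 libraries were all below the DMSO libraries, and the MK-8722 libraries overlapped the DMSO libraries. Torin1 lowered Tfeb in AMPK KO cells by 0.46 (SE 0.096, adjusted p = 0.00025 in edgeR), in a comparison where 43.5% of all genes were called and 53.8% did not overlap. MK-8722 gave -0.12 (95% interval -0.31 to 0.08, adjusted p = 0.61 in edgeR). Torin1 and MK-8722 differed by -0.34 for Tfeb and by -0.46 for Tfe3 in AMPK KO, so that 2 of 3 members were called beside 45.5% of all genes.

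The change with torin1 differed between the genotypes for Tfeb, with an interaction of -0.52 (SE 0.14, adjusted p = 0.018 in edgeR), the change in AMPK KO minus that in WT. For the torin1 interaction 7.07% of all genes were called, and Tfeb was the 1 member called of 3. The corresponding interaction with MK-8722 was 0.26 (95% interval -0.02 to 0.55, adjusted p = 0.21 in edgeR) and was not called, but with a block for passage it was 0.27 (adjusted p = 0.038 in edgeR) and was called, so whether the genotypes differed in this change depends on the fit. With a correction for the average transcript length the torin1 interaction was -0.51 with an adjusted p of 0.07 in edgeR and was no longer called.

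Without a compound Tfeb was higher in AMPK KO than in WT cells, by 0.36 (SE 0.096, adjusted p = 0.002 in edgeR), a ratio of 1.28. The ranges of 8.76 to 10.9 and 10.4 to 13.9 CPM overlapped through AMPK KO DMSO replicate 3. Between the genotypes 56.9% of all genes were called and 64% did not overlap, so a called gene is the usual case in that comparison. With MK-8722 the difference was 0.62 (SE 0.099, adjusted p = 5.7e-06 in edgeR, with 58.9% of all genes called and 63.7% without overlap), and with torin1 it was -0.16 (95% interval -0.36 to 0.04, adjusted p = 0.15 in edgeR, with 54.6% called). The order of the group means, from 7.58 CPM in WT with MK-8722 through 9.17 in AMPK KO with torin1, 9.83 and 10.2 in WT with DMSO and torin1, and 11.6 in AMPK KO with MK-8722, to 12.6 CPM in AMPK KO with DMSO, had overlapping neighbours except at its lowest step.

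**Figure D1:**
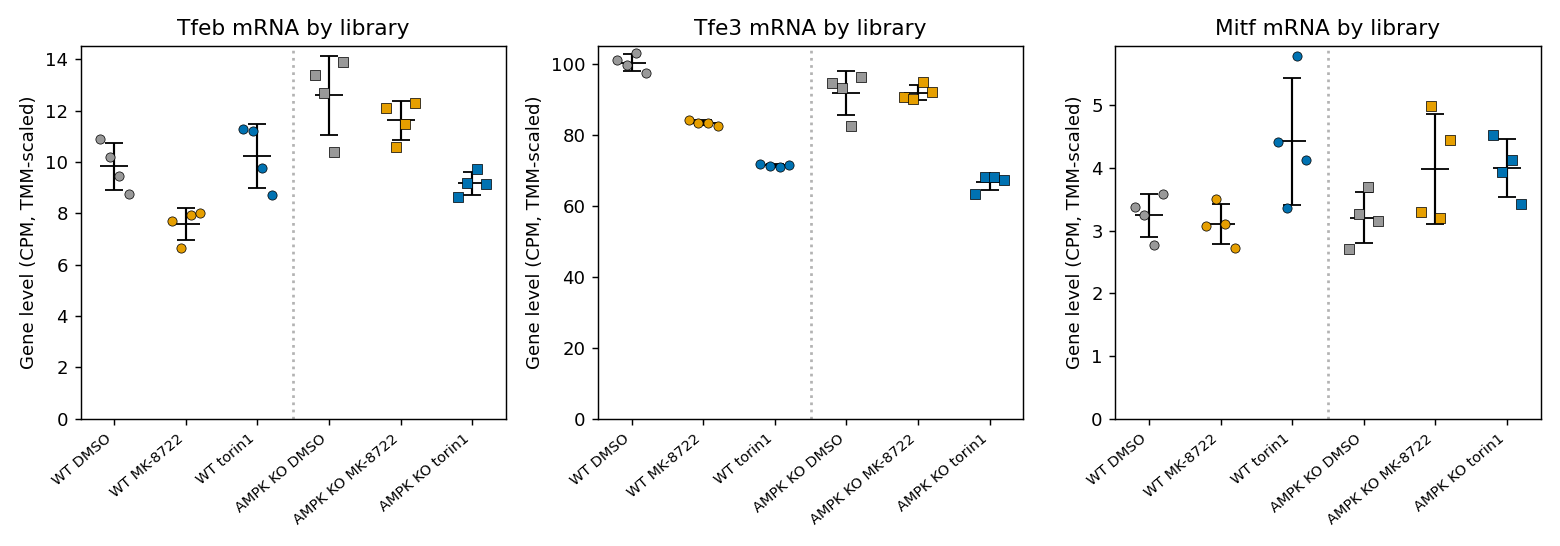
Gene level of Tfeb, Tfe3 and Mitf in CPM (vertical axis, from 0) in each of the 24 libraries by group, circles for WT and squares for AMPK KO, with horizontal ticks for the group mean and bars for 1 SD (n = 4). Tfe3 sits at 70.9 to 71.8 CPM in WT and 63.2 to 68.0 CPM in AMPK KO with torin1, below all other groups, while Tfeb is lowest in WT with MK-8722, at 6.65 to 8.02 CPM.

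Tfe3 (ENSMUSG00000000134, chromosome X, bases 7762560 to 7775202, plus strand), the member that shares most lysosomal targets with Tfeb, had the tightest replicates. Replicates 1 to 4 in WT were at 101, 99.7, 103 and 97.3 CPM with DMSO. They were at 84.2, 83.4, 83.4 and 82.4 CPM with MK-8722 and at 71.8, 71.3, 70.9 and 71.6 CPM with torin1. The 3 groups did not overlap, with the DMSO libraries highest and the torin1 libraries lowest.

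Torin1 lowered Tfe3 by 0.49 in WT (SE 0.039, ratio 0.714, adjusted p = 1.9e-10 in edgeR), where 47.6% of all genes were called, 21.1% lower, and 51.8% did not overlap. MK-8722 lowered it by 0.26 in WT (SE 0.039, ratio 0.833, adjusted p = 1.7e-05 in edgeR), which is at the fold threshold itself and was no longer called when libraries were scaled by size alone. Torin1 and MK-8722 differed by -0.22 in WT (SE 0.039, adjusted p = 3.2e-05 in edgeR), below the fold threshold, in a comparison where 45.7% of all genes were called.

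In AMPK KO cells only the fall with torin1 was called for Tfe3. Replicates 1 to 4 were at 94.5, 93.2, 82.5 and 96.3 CPM with DMSO. They were at 90.7, 90.1, 94.8 and 91.9 CPM with MK-8722 and at 63.2, 68.0, 68.0 and 67.3 CPM with torin1. Every torin1 library lay below every DMSO library, and the MK-8722 libraries lay among the DMSO libraries.

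Torin1 lowered Tfe3 in AMPK KO cells by 0.46 (SE 0.039, adjusted p = 7.8e-10 in edgeR), and the interaction with genotype was 0.03 (95% interval -0.09 to 0.14, adjusted p = 0.82 in edgeR). MK-8722 left it at a log2 difference of 0.00 (95% interval -0.08 to 0.08, adjusted p = 0.98 in edgeR). In that comparison 0 of the 3 members tested were called beside 1.56% of all genes, 0 had an unadjusted p under 0.05, and DESeq2 called 0. The interaction of MK-8722 with genotype was 0.27 for Tfe3 (SE 0.055, adjusted p = 0.0015 in edgeR), called beside 12.8% of all genes, again near the fold threshold. It fell under that threshold at 0.22 without AMPK KO DMSO replicate 3, which had the lowest Tfe3 of its group, and at 0.25 without AMPK KO MK-8722 replicate 3.

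Between the genotypes Tfe3 differed by -0.13 with DMSO (SE 0.039, adjusted p = 0.0056 in edgeR), by 0.14 with MK-8722 and by -0.10 with torin1. The groups did not overlap in any of these, as in 64%, 63.7% and 61.8% of all genes, but no difference reached the fold threshold. Scaling by library size alone turned the difference with DMSO to 0.01, and moved the median of all genes in that comparison to 0.155 from 0.015. Tfe3 lies on the X chromosome, and the lines differed in X-linked and Y-linked transcripts, a pair of genes chosen after their values were seen. Xist, the RNA of the inactive X chromosome, was at 281 to 511 CPM in WT libraries and at most 0.0903 CPM in AMPK KO libraries, and Ddx3y was at 0 in WT and at most 0.692 CPM in AMPK KO libraries. Their part in the genotype differences of Tfe3 was not tested.

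**Figure D2:**
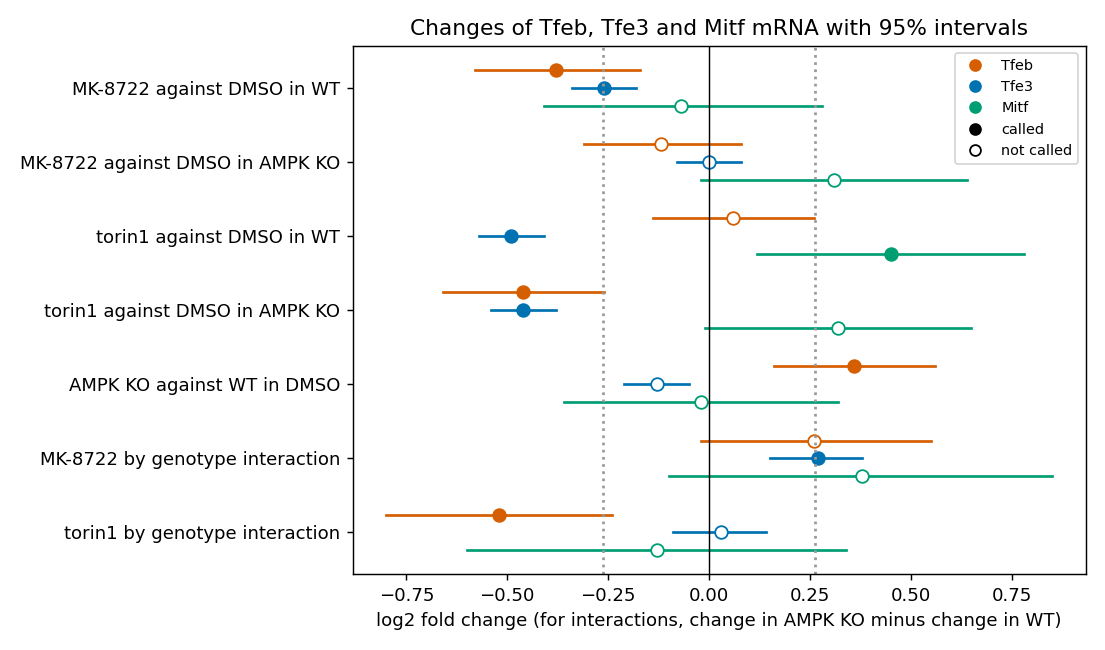
Log2 fold change (horizontal axis) of Tfeb, Tfe3 and Mitf in 5 pairwise comparisons and 2 interactions, with 95% intervals from the edgeR fit, filled points for called changes and dotted lines at a fold change of 1.2. Tfe3 fell with torin1 by 0.49 in WT and 0.46 in AMPK KO, while Tfeb fell with torin1 by 0.46 in AMPK KO and was at 0.06 in WT.

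Mitf (ENSMUSG00000035158, chromosome 6, bases 97807052 to 98021349, plus strand) was counted with 77 to 196 reads per library, and its values spread more. In WT, replicates 1 to 4 were at 3.37, 3.25, 2.77 and 3.58 CPM with DMSO, at 3.08, 3.51, 3.10 and 2.73 CPM with MK-8722, and at 4.42, 3.36, 5.79 and 4.13 CPM with torin1. In AMPK KO they were at 2.71, 3.27, 3.69 and 3.15 CPM with DMSO, at 3.29, 4.99, 3.20 and 4.44 CPM with MK-8722, and at 4.52, 3.93, 4.12 and 3.42 CPM with torin1. The groups overlapped in both genotypes, though the torin1 means were higher than the DMSO means in both. The summed level of the 5 melanocyte markers, nearly all of it Pmel, moved with torin1 too. In WT it spanned 0.183 to 0.534 CPM with DMSO and 0.991 to 1.41 CPM with torin1, and AMPK KO libraries spanned 0.453 to 0.900 CPM with DMSO and 1.23 to 1.68 CPM with torin1. Those ranges do not overlap in either genotype, as was the case for 51.8% of all genes in WT and 53.8% in AMPK KO. Tyr and Tyrp1 were at 0 throughout, and Dct and Mlana had at most 2 and 1 counts in a library. The part of these markers in the Mitf values was not tested.

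Torin1 raised Mitf in WT by 0.45 (SE 0.16, ratio 1.36, adjusted p = 0.019 in edgeR), beside 26.6% of all genes called higher. The call rested on single libraries, as it was lost without WT DMSO replicate 3 (0.37, adjusted p = 0.073 in edgeR) and without WT torin1 replicate 3 (0.31, adjusted p = 0.096), and with the length correction (0.29, adjusted p = 0.18). In AMPK KO torin1 gave 0.32 (95% interval -0.01 to 0.65, adjusted p = 0.096 in edgeR) and MK-8722 gave 0.31 (95% interval -0.02 to 0.64, adjusted p = 0.34). MK-8722 in WT gave -0.07 (95% interval -0.41 to 0.28), and neither interaction was called for Mitf. The pseudogene Gm15531 lies on the other strand and overlaps the span of Mitf, but whether it overlaps exons of Mitf was not examined. Since the use of strand in counting is not given in the sources used here, reads of the 2 could not be told apart at any shared exon bases.

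At the level of transcripts, 6 of Tfe3, 3 of Tfeb and 4 of Mitf reached a mean share of at least 10% of their gene's TPM in some group. These shares are Salmon estimates from short read pairs, and the uncertainty of each estimate was not used here. Isoform use was tested with diffSpliceDGE of edgeR, which asks whether transcripts of a gene change unequally, in 7 comparisons. Of 21 tests over the 3 members, 2 were called, both of Tfe3. Tfeb and Mitf entered with 4 and 2 transcripts and were called in none of the 7. Of all genes tested, 0.65% were called with MK-8722 in WT, 6.05% and 3.44% with torin1 in WT and AMPK KO, 6.03% between the genotypes and 0.251% for the torin1 interaction.

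Tfeb was carried mostly by Tfeb-202, a transcript of the 5′-most start. Its mean share was at least 67.0% in each of the 6 groups, and single libraries ranged from 55.5% to 95.7%. Its own level followed the gene, with a fall of 0.64 with torin1 in AMPK KO (SE 0.16, adjusted p = 0.0062 in edgeR over transcripts, with 16.4% of 56835 transcripts called) and a rise of 0.56 in AMPK KO against WT with DMSO (SE 0.16, adjusted p = 0.011, with 26.9% called). Tfeb-201, which codes for a longer N-terminus, had a share of 17.1%, 8.70%, 11.6% and 8.37% in the WT DMSO libraries and of 4.52%, 5.0%, 0% and 7.31% in the AMPK KO DMSO libraries. These do not overlap, but rest on 0 to 56 counts, and the exact two-sided permutation test gave p = 0.029, the smallest that 4 against 4 allows, and 0.62 adjusted over 65 such tests. Tfeb-212, a partial annotation of 334 codons, had a mean share of 3.99% in WT with DMSO and 7.25% to 11.5% in the other groups, on 0 to 57 counts per library, and it was at 0 in at least 1 library of 4 groups.

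The called change in isoform use of Tfe3 was in MK-8722 against DMSO in AMPK KO (adjusted p = 0.013 in edgeR), where 0.121% of 10768 genes were called, and in the interaction of MK-8722 with genotype (adjusted p = 0.039), where 0.214% were called. It came from 1 minor transcript, Tfe3-207, which is annotated for nonsense-mediated decay. Tfe3-207 had 80, 123, 45 and 52 counts in the AMPK KO DMSO libraries and 0 in all 4 AMPK KO MK-8722 libraries. Salmon assigns reads among transcripts that share sequence, so the limit of 3 counts for a 0 does not hold here. Tfe3-207 was also at 0 in 2 AMPK KO torin1 libraries, in WT DMSO replicate 2 and in WT MK-8722 replicate 3. Within WT MK-8722 alone it ranged from 0 to 181 counts. With Tfe3-207 left out of the fit, an alternative chosen after seeing the data, both adjusted p became 1.0.

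**Figure D3:**
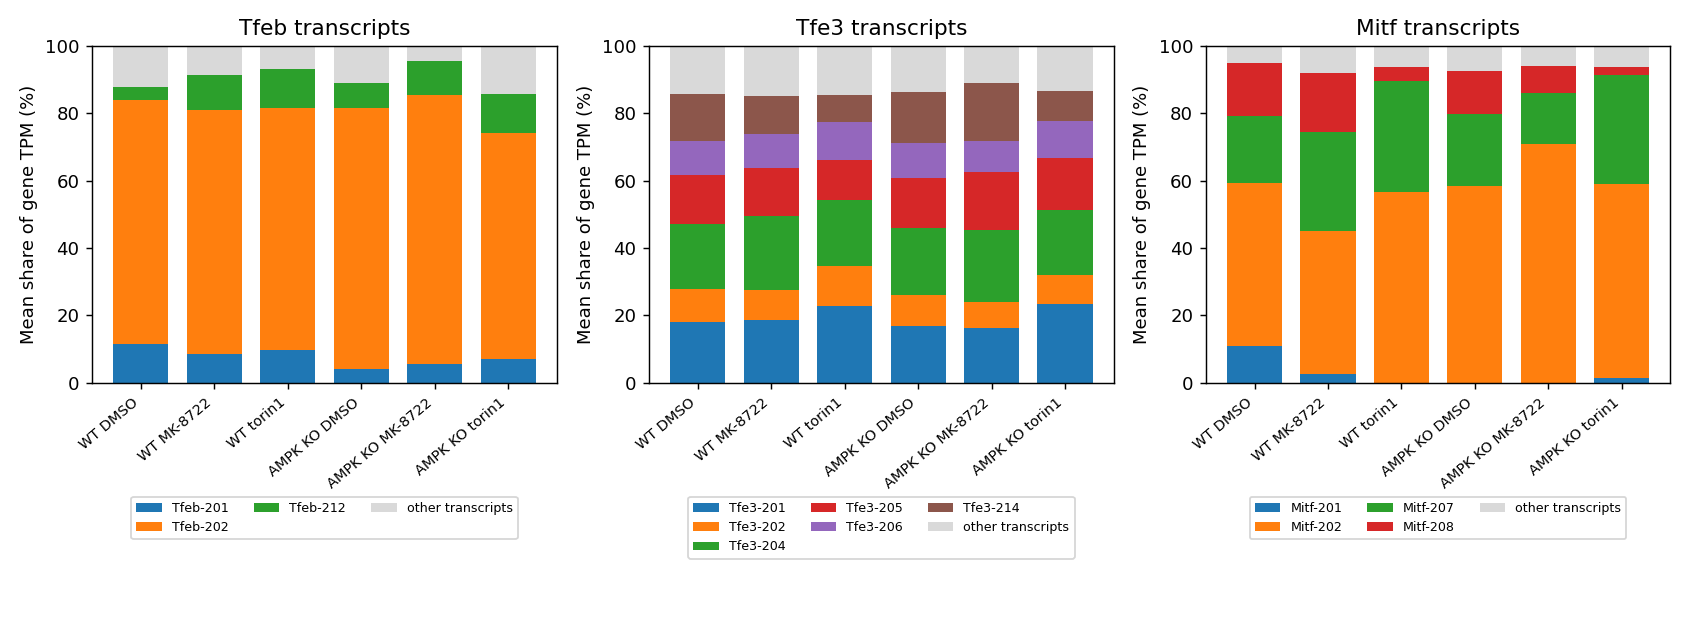
Mean share of the gene's TPM (vertical axis, 0 to 100%) held by each transcript with a mean share of at least 10% in some group, stacked for the 6 groups, with all other transcripts in grey (n = 4 libraries a bar). Tfeb-202 holds at least 67.0% of Tfeb in each group, Tfe3 is split over 6 such transcripts, and Mitf-202 and Mitf-207 hold most of Mitf.

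No single transcript dominated Tfe3. The shares of its main transcripts in WT with DMSO were 19.2% ± 3.65 for Tfe3-204, 18.0% ± 1.41 for Tfe3-201, 14.6% ± 2.17 for Tfe3-205, 13.8% ± 3.27 for Tfe3-214, 10.2% ± 1.41 for Tfe3-206 and 9.85% ± 2.79 for Tfe3-202 (SD, n = 4). Tfe3-214 is a partial annotation of 408 bases with few counts, 10 to 67 per library.

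The share of Tfe3-201, the full-length form with the upstream coding start, was higher with torin1 in both genotypes. It was 17.1%, 16.7%, 18.7% and 19.7% in WT with DMSO and 23.2%, 21.6%, 22.8% and 24.1% with torin1. In AMPK KO it was 13.9%, 17.3%, 16.6% and 18.9% with DMSO and 23.3%, 23.6%, 22.2% and 24.7% with torin1. Neither pair of groups overlapped, and each exact two-sided permutation test gave p = 0.029, or 0.62 adjusted over 65 tests. As 0.029 is the smallest p that 4 against 4 allows, a few shares could not have passed an adjustment over 65 or 25 tests, and the adjusted values do not show that the shares were alike.

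By level the transcripts had different values, although isoform use of Tfe3 was not called with torin1 in either genotype. Tfe3-201 changed by -0.17 in WT (SE 0.11, adjusted p = 0.36 in edgeR over transcripts) and by -0.09 in AMPK KO (SE 0.11, adjusted p = 0.72). Tfe3-205 fell with torin1 by 0.78 in WT (SE 0.21, adjusted p = 0.0083), where 21.1% of transcripts were called, and gave -0.56 in AMPK KO (SE 0.21, adjusted p = 0.07). Tfe3-214 fell by 1.30 in WT (SE 0.32, adjusted p = 0.0046) and by 1.29 in AMPK KO (SE 0.32, adjusted p = 0.0059).

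Transcripts were then summed by start site, joining starts at most 300 bases apart, a grouping chosen after seeing the data. The upstream Tfe3 start held 47.9%, 39.5%, 46.9% and 39.4% of the gene's TPM in WT with DMSO and 52.3%, 49.2%, 53.6% and 50.5% with torin1. The downstream start held 50.0%, 57.2%, 51.2% and 57.4% with DMSO and 45.3%, 47.8%, 45.1% and 44.7% with torin1. In WT the 2 sets of libraries did not overlap for either start, and by TPM the larger share passed from the downstream to the upstream start. The 2 starts held nearly all of the TPM between them, so their shares mirror each other. Part of the downstream share was Tfe3-214, the partial annotation with few counts, at a mean of 13.8% with DMSO and 8.01% with torin1. The mean shares in WT with DMSO were 53.9% downstream and 43.4% upstream. On these means the downstream start was ahead only with Tfe3-214 counted in. In counts the upstream start had 1293 to 1641 and the downstream start 1149 to 1416 per WT library with DMSO. How often shares did not overlap among all genes was not counted.

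In AMPK KO the upstream share was 42.5% ± 6.10 with DMSO and 48.0% ± 2.07 with torin1, and the ranges of 33.9% to 48.3% and 46.5% to 51.0% overlapped. Torin1 lowered the level of the downstream site by 0.63 in WT (SE 0.11, adjusted p = 8.1e-05 in edgeR over start sites, with 29.6% of 31820 sites called) and that of the upstream site by 0.31 (SE 0.071, adjusted p = 0.0012). In AMPK KO the falls were 0.58 (SE 0.11, adjusted p = 0.00024, with 24.4% called) and 0.38 (SE 0.071, adjusted p = 0.00021). Both starts therefore fell in both genotypes. Whether they fell unequally was asked by the test of start-site use, and the answer was no call for Tfe3. The adjusted p in edgeR was 0.37 in WT, with 3.66% of 7750 genes called, and 0.90 in AMPK KO, with 2.18% called. The exact two-sided permutation test of the WT shares gave p = 0.029, or 0.36 adjusted over 25 tests. Over the 3 members and 7 comparisons, 0 of 21 tests of start-site use were called in edgeR and 0 had an unadjusted p under 0.05. Of the 25 exact permutation tests of start-site shares, 0 passed after adjustment and 2 had an unadjusted p under 0.05. In the other comparisons 0.529% of genes were called with MK-8722 in WT, 0.0903% with MK-8722 in AMPK KO, 4.66% between the genotypes, 0.232% for the MK-8722 interaction and 0.0516% for the torin1 interaction.

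With MK-8722 the Tfe3 start-site shares in WT were 44.2% ± 3.05 upstream and 53.2% ± 3.53 downstream, against 43.4% ± 4.58 and 53.9% ± 3.91 with DMSO. In AMPK KO they were 36.9% ± 3.98 and 61.0% ± 3.56, against 42.5% ± 6.10 and 55.2% ± 6.50. All 4 differences were within the spread of the libraries, with exact permutation p of 0.17 or more. The upstream coding start, as a share of the full-length coding transcripts with either coding start, was 35.4% ± 3.81 with DMSO and 41.0% ± 3.97 with torin1 in WT (exact permutation p = 0.11), and 33.6% ± 7.17 and 37.6% ± 2.82 in AMPK KO (exact permutation p = 0.40).

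**Figure D4:**
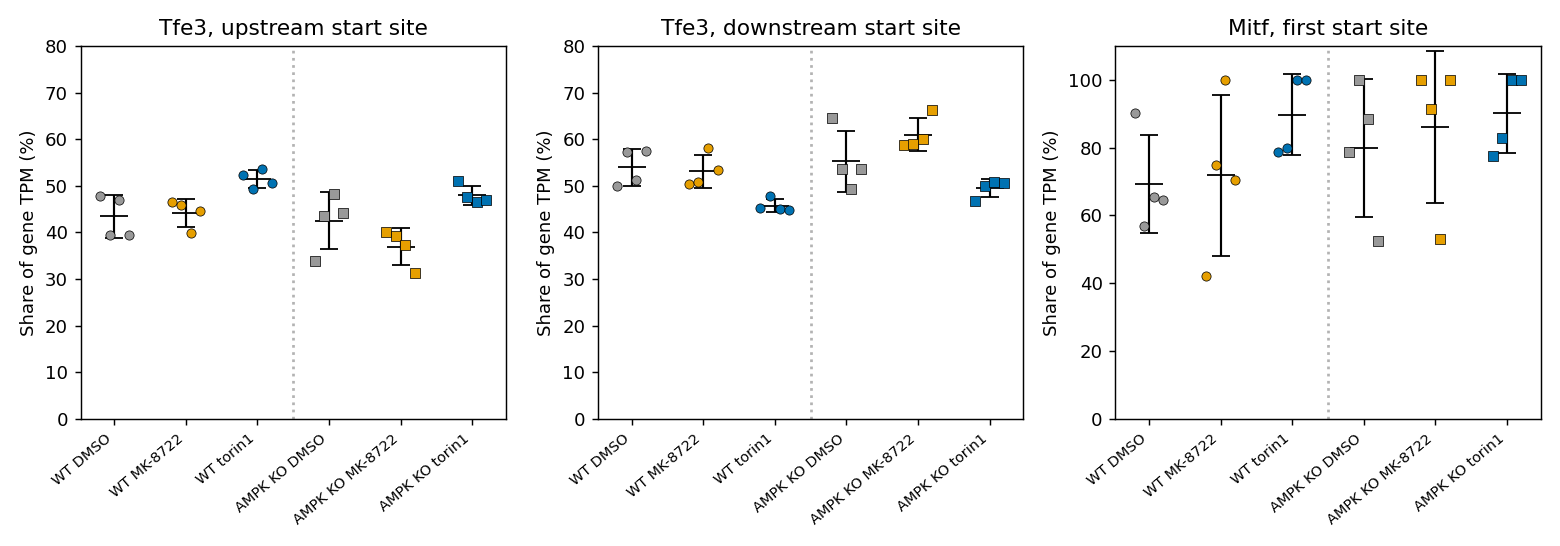
Share of the gene's TPM (vertical axis, %) from the upstream and downstream Tfe3 starts and from the first Mitf start, in each of the 24 libraries, with the group mean and 1 SD (n = 4). The upstream Tfe3 share is 49.2% to 53.6% in WT with torin1 and 39.4% to 47.9% with DMSO, while the Mitf shares spread from 42.2% to 100%.

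Mitf in these cells came mainly from its first start, shared by Mitf-202 and Mitf-207, the start of the broadly expressed form. That start held a mean of 69.2% to 90.1% of the gene's TPM in the 6 groups, and single libraries ranged from 42.2% to 100%. The melanocyte start, with Mitf-201, Mitf-205 and Mitf-208, held 26.4% ± 18.7 in WT with DMSO and a mean of 5.0% to 20% in the other groups, on at most 23 counts per library. Mitf-201 itself, the transcript of the melanocyte form with 419 codons, was at 0 in all libraries of 3 groups.

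In WT the level of the first Mitf start rose with torin1 by 0.64 (SE 0.21, adjusted p = 0.02 in edgeR over start sites), and its share was 69.2% ± 14.5 with DMSO and 89.7% ± 12.0 with torin1 (exact permutation p = 0.086, or 0.48 adjusted over 25 tests). Mitf-202 with the 18-base segment had 46 to 161 counts per library and Mitf-207 without it 0 to 37. Mitf-207 was listed at 0 in WT DMSO replicate 4, WT MK-8722 replicate 1, AMPK KO DMSO replicate 1 and AMPK KO MK-8722 replicates 3 and 4, so its share could not be followed across treatments at this depth.

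The regulators of the family were taken from a list of 41 genes, all tested, holding MTORC1, its lysosomal scaffold and Rag GTPases, the FLCN-FNIP complex, phosphatases, 14-3-3 proteins and kinases. Of the 41, 6 are also on the list of target genes read below, Rragd and Fnip1 among them. Both lists were written from general knowledge with earlier results of these data known, so their counts are descriptive. With MK-8722 in WT, 13 were called higher and 1 lower, beside 10% and 5.66% of all genes, and the list's median change was 0.09 beside 0.00 for all genes. Rragd, a Rag GTPase that is itself a target of the family, rose by 1.96 (SE 0.27, adjusted p = 8e-06 in edgeR), from 0.371 ± 0.0878 to 1.46 ± 0.222 CPM (SD, n = 4). Fnip1, a partner of folliculin in the complex that acts on RagC, rose by 1.35 (SE 0.11, adjusted p = 2.1e-09), from 28.0 ± 0.767 to 71.6 ± 3.90 CPM. The 14-3-3 theta gene Ywhaq was the 1 gene called lower, by 0.27 (SE 0.031, adjusted p = 6.7e-07), which scaling by library size alone moved under the fold threshold.

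With MK-8722 in AMPK KO, 0 of the 41 were called in edgeR, beside 1.56% of all genes, 4 had an unadjusted p under 0.05, and DESeq2 called 0. With torin1 11 were called higher and 19 lower in WT, beside 26.6% and 21.1% of all genes, and 12 higher and 14 lower in AMPK KO, beside 25.9% and 17.6%. The list's median was -0.17 in WT and -0.12 in AMPK KO, beside 0.04 and 0.06 for all genes. In WT the largest rises were those of Rragd, by 1.62 (SE 0.28, adjusted p = 2.4e-05 in edgeR), and of the lysosomal calcium channel gene Mcoln1, by 1.02 (SE 0.072, adjusted p = 1.9e-11). In AMPK KO the largest were those of Fnip1, by 1.37 (SE 0.11, adjusted p = 3e-10), and of the Rag GTPase gene Rragb, by 1.2 (SE 0.11, adjusted p = 2.3e-09).

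The largest falls with torin1 were in kinase and 14-3-3 genes. Akt1 fell by 0.87 in WT (SE 0.06, adjusted p = 1.5e-11 in edgeR), from 449 ± 15.9 to 246 ± 19.4 CPM, and by 0.70 in AMPK KO (SE 0.06, adjusted p = 9.9e-10), from 343 ± 23.4 to 212 ± 14.7 CPM. Phosphorylation of TFEB by the kinase AKT was reported from a cell-free assay, and the study states that it is not established in cells or tissues. Ywhaz fell by 0.87 in WT (SE 0.053, adjusted p = 2e-12), from 928 ± 44.5 to 508 ± 17.5 CPM. Ywhag fell by 0.66 in AMPK KO (SE 0.045, adjusted p = 1.9e-11), from 452 ± 18.3 to 286 ± 16.9 CPM.

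The targets were read from a list of 32 CLEAR genes, all tested, of which 6 are also on the list of regulators. This list too was chosen with earlier results of these data known. With MK-8722 in WT 30 were called higher and 0 lower, beside 10% and 5.66% of all genes, with a median of 0.86. In AMPK KO with MK-8722 0 were called in edgeR, beside 1.56% of all genes, 2 had an unadjusted p under 0.05, and DESeq2 called 0. With torin1 25 were called higher in WT and 25 in AMPK KO, with medians of 0.63 and 0.56, beside 26.6% and 25.9% of all genes. In each of these comparisons 0 were called lower in edgeR and in DESeq2. Among the WT targets not called were Wipi1 with MK-8722 (-0.14) and Atp6v1h (-0.09) and Ctsb (-0.01) with torin1, 3 genes chosen after their values were seen. The comparisons of either compound with DMSO in a genotype share their DMSO libraries.

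Gpnmb, a lysosomal glycoprotein gene, had the largest rise of the list with MK-8722 in WT and with torin1 in both genotypes. It was at 4.40 ± 1.2 CPM in WT with DMSO, at 43.9 ± 8.15 with MK-8722 and at 40.8 ± 14.6 with torin1 (SD, n = 4). In AMPK KO it was at 0.842 ± 0.181 CPM with DMSO, 0.688 ± 0.220 with MK-8722 and 16.0 ± 6.65 with torin1. Its interaction of MK-8722 with genotype was -3.59 (SE 0.67, adjusted p = 0.00064 in edgeR). The cysteine protease gene Ctsf rose with torin1 in WT by 1.67 (SE 0.15, adjusted p = 8.6e-10), from 1.18 ± 0.0961 to 3.79 ± 0.441 CPM.

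In the interactions the lists, which share 6 genes including Rragd and Fnip1, held more called genes for MK-8722 than for torin1. For MK-8722, 0 of the 32 targets were called higher and 29 lower in edgeR, with a median of -0.88, and 1 regulator was called higher and 12 lower, beside 5.12% and 7.66% of all genes. Rragd had an interaction of -2.12 (SE 0.33, adjusted p = 7e-05), Fnip1 one of -1.27 (SE 0.16, adjusted p = 4.4e-06) and Ywhaz one of 0.27 (SE 0.075, adjusted p = 0.013). For torin1, 1 target was called higher and 2 lower, and 2 regulators higher and 1 lower, beside 4.15% and 2.92% of all genes. The genes were Fnip1 (0.49, SE 0.15, adjusted p = 0.044), Lamtor3 of the lysosomal scaffold (0.35, SE 0.064, adjusted p = 0.0014), Rragd (-1.13, SE 0.33, adjusted p = 0.031) and Ppargc1a, a coactivator gene (-1.29, SE 0.40, adjusted p = 0.042).

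Between the genotypes with DMSO, 5 targets were called higher and 10 lower in AMPK KO, and 4 regulators higher and 11 lower, beside 30.9% and 26% of all genes. With MK-8722 in both genotypes the targets numbered 2 higher and 28 lower, beside 31.4% and 27.5%. Some baselines differed by far more than those of the members. AMPK KO cells had 5.46 ± 1.19 CPM of Rragd with DMSO and 10.6 ± 1.07 CPM of Ctsf, each above all means of the WT groups.

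**Figure D5:**
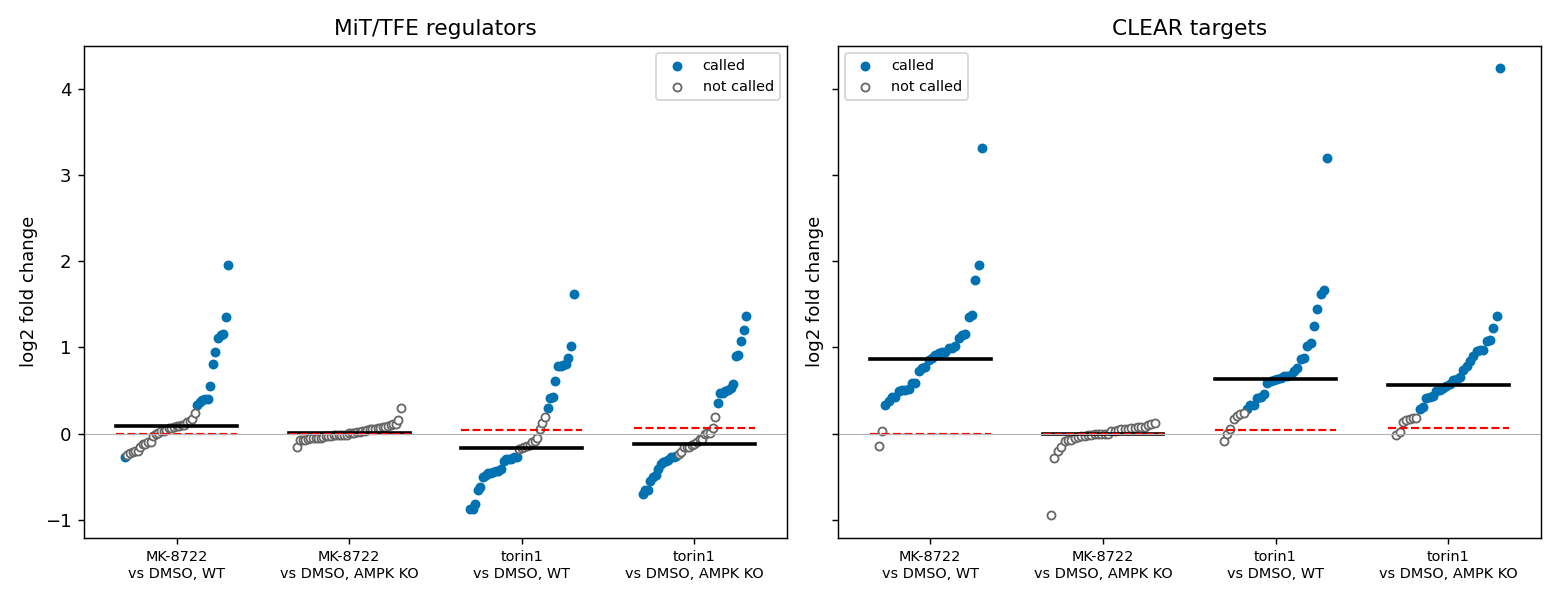
Log2 fold change (vertical axis) of each gene of the 2 lists in the 4 comparisons of a compound with DMSO, blue when called and open when not, with a black line at the list's median and a red dashed line at the median of all genes. The 32 CLEAR targets have medians of 0.86, 0.00, 0.63 and 0.56, and the 41 regulators split into 11 higher and 19 lower with torin1 in WT.

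For each member the 3 genes with the most similar levels were sought among 10540 genes with a mean of at least 5 CPM, by the smaller of the 2 Pearson correlations of log2 CPM over the 12 WT and the 12 AMPK KO libraries. The libraries share 3 treatments within each genotype, so such correlations describe the pattern over treatments. For Tfe3 they were Tpm3 (0.98 and 0.98), Med29 (0.98 and 0.99) and Ube2l3 (0.98 and 0.98). For Tfeb they were Gamt (0.94 and 0.94), Arrb1 (0.90 and 0.91) and Arf2 (0.89 and 0.92), and for Mitf Hdgfl3 (0.88 and 0.84), Lgals8 (0.82 and 0.83) and Usp37 (0.86 and 0.82). Between Tfeb and Tfe3 the correlation was -0.05 over the WT and 0.92 over the AMPK KO libraries.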

How the data were processed

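Poly(A) RNA of 24 MEF libraries was sequenced as 52-base read pairs. Per the study's methods and the labels, the authors ran nf-core/rnaseq with STAR and Salmon on GRCm38 (Ensembl release 102). The deposited gene table holds estimated counts, not normalized, and 1 deposited table per library gives each transcript's estimated count with its TPM, an abundance scaled by length and depth. UMI options were set, but whether copies were removed was not tested here. The methods mention removal of an unnamed batch effect, and since all libraries carry 1 batch label none was removed here.

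Groups followed the labels for genotype and treatment. Counts were rounded, filtered with filterByExpr (15828 of 55487 genes, holding 99.96% of counts), scaled by TMM and fitted with 6 group means in edgeR 4.0.16 (R 4.3.3). Quasi-likelihood tests were two-sided, with Benjamini-Hochberg adjustment over all genes, transcripts or start sites tested. The biological coefficient of variation was 0.079. Log2 CPM used a prior count of 2. The same models were fitted to transcripts and start sites, and isoform use was tested with diffSpliceDGE. Shares of gene TPM were compared with exact permutation tests (scipy) as an alternative. On simulated counts with 200 genes changed by a log2 change of 1 in MK-8722 against DMSO in WT, 100% were recovered and 2.91% of 206 calls were false, over 15369 genes. Isoform use recovered 100% with 6.1% of 213 calls false, over the 10540 genes tested in that simulation. All gene-level log2 values of the members were smaller than 1, and recovery at such sizes was not tested, for genes or isoform use.

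All 42 member transcripts had the same length in GENCODE M21, the annotation used for exons and coding starts, and 99.1% of all transcripts were found there. The members and lists were chosen with earlier results of these data known. Named were all members, transcripts with a mean share of at least 10%, up to 2 called list genes with the largest rise and 2 with the largest fall per compound and genotype, the 3 most similar genes per member, the markers, Prkaa1 and Prkaa2. Alternatives were DESeq2 1.42.0, other scalings and filters, a length offset, stricter folds, blocks by replicate number or passage, the compared libraries alone, and leaving out each library. Replicate numbers did not pair the libraries, since deviations of libraries with the same number correlated with a median r of 0.02 (5 of 60 over 0.1). Passage matched the treatments within a genotype, and libraries of the same passage had a median r of 0.13 (15 of 24 over 0.1). Neither the main tests nor the permutation tests used this match. Intervals and floors of 3 counts cover counting error only.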

Additional observations from a re-analysis of the deposited data

Results flagged for a closer look

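Of 18 member-by-group sets of 4 libraries, 1 held a library far from the rest. It was AMPK KO torin1 replicate 1 for Tfe3, at 63.2 CPM beside 67.3 to 68.0 CPM in the other 3, a gap of 0.854 of the group's range. Chance alone marks about 1 in 20 such sets. This library came from passage 16, as did AMPK KO DMSO replicate 3, which had the lowest Tfe3 of the DMSO group, at 82.5 CPM. The part of passage in these values was not tested beyond the fit with a passage block.

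The effects of a compound differed between the genotypes in 3 results. The change of Tfe3 with MK-8722 differed by 0.27 on the log2 scale, AMPK KO minus WT (adjusted p = 0.0015 in edgeR). The change of Tfeb with torin1 differed by -0.52 (adjusted p = 0.018 in edgeR), from 0.06 in WT to -0.46 in AMPK KO. Isoform use of Tfe3 under MK-8722 differed with an adjusted p of 0.039 in edgeR, and the value was 1.0 when Tfe3-207 was left out of the fit.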

How the results depend on the processing

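Leaving out each library in turn gave 312 values for the members, of which 290 kept direction and call, and other settings gave 396, of which 343 did. Requiring a fold change of 1.5 removed calls without changing values: Tfeb and Tfe3 with MK-8722 in WT (-0.38, -0.26), Tfe3 and Mitf with torin1 in WT (-0.49, 0.45), Tfeb and Tfe3 with torin1 in AMPK KO (-0.46 each), Tfeb between genotypes (0.36), Tfeb and Mitf for torin1 against MK-8722 in WT (0.44, 0.51), Tfeb and Tfe3 for the same in AMPK KO (-0.34, -0.46), and the interactions of Tfe3 with MK-8722 (0.27) and Tfeb with torin1 (-0.52). Testing against a fold change of 1.2 removed those of -0.38, -0.26, 0.36, 0.51, -0.34, 0.27 and -0.52, and that of Mitf with torin1 in WT (0.45). An adjusted p alone added Tfe3 between genotypes with DMSO (-0.13), MK-8722 (0.14) and torin1 (-0.1), and torin1 against MK-8722 in WT (-0.22).

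With library size alone, the median of all genes moved to 0.117 to 0.155 in comparisons of torin1 or genotype. Tfe3 with MK-8722 in WT (-0.26), Tfeb for torin1 against MK-8722 in AMPK KO (-0.26) and the MK-8722 interaction of Tfe3 (0.24) lost their calls, Mitf between genotypes with MK-8722 gained one (0.48), and Tfe3 (0.01) and Mitf (0.12) between genotypes and the torin1 interaction of Tfe3 (-0.01) changed sign. With the length offset, Mitf with torin1 in WT (0.29), Mitf (0.26) for torin1 against MK-8722 in WT, Tfeb for it in AMPK KO (-0.26) and the torin1 interaction of Tfeb (-0.51) lost their calls, Tfe3 for torin1 against MK-8722 in WT gained one (-0.27), and Mitf with MK-8722 in WT (0.02) and between genotypes with MK-8722 (-0.04) changed sign. With at least 10 counts in every library, Mitf between genotypes with MK-8722 gained a call (0.43), as with DESeq2 size factors (0.37), and Mitf between genotypes (0.04) and the torin1 interaction of Tfe3 (-0.02) changed sign. Mitf for torin1 against MK-8722 in AMPK KO, at 0.01, was -0.01 with that filter or none, -0.02 with DESeq2 or its size factors and -0.04 in the compared libraries alone, where the MK-8722 interaction of Tfe3 lost its call by fold (0.26) and its torin1 interaction was -0.05. The passage block added Mitf with torin1 in AMPK KO (0.32), Mitf between genotypes with MK-8722 (0.35) and the MK-8722 interaction of Tfeb (0.27). Over all genes, it raised the number called with MK-8722 in AMPK KO to 729 from 247 in the main fit. The causes of these shifts were not tested.

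The replicate block, where samples share only a number, changed no call of a gene's level, and gave an adjusted p of 0.06 for isoform use of Tfe3 in the MK-8722 interaction, which was 0.27 with the passage block. Isoform use of Tfe3 had an adjusted p of 1.0 in both called comparisons when only transcripts of at least 5% of the gene's TPM, or all but Tfe3-207, were tested. For start-site use, 216 fits without single libraries and 63 other alternatives all kept their side of the threshold.

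Without single libraries, Tfeb with torin1 in WT ranged from -0.01 to 0.12, Mitf from 0.31 to 0.55, Mitf between genotypes from -0.13 to 0.04 with DMSO and 0.2 to 0.45 with MK-8722 (a call without AMPK KO MK-8722 replicates 1 or 3 or WT MK-8722 replicate 2), Tfeb between genotypes with torin1 from -0.28 to -0.12 (a call without WT torin1 replicate 4), Mitf for torin1 against MK-8722 in AMPK KO from -0.13 to 0.12, and the interactions of Tfe3 from 0.22 to 0.29 with MK-8722 and -0.09 to 0.04 with torin1. Isoform use of Tfe3 had an adjusted p of 0.0046 to 0.055 with MK-8722 in AMPK KO (lost without AMPK KO MK-8722 replicate 4) and 0.0086 to 0.14 in the interaction (lost in 11 of 16 fits). A fold change of 1.5 left 7 regulators higher and 0 lower with MK-8722 in WT, 5 lower with torin1 in WT, and 5 higher and 3 lower with torin1 in AMPK KO, and 15 targets higher there. Library size alone left 0 regulators lower with MK-8722 in WT and 9 with torin1 in AMPK KO. Depth left Tfec, at 0 or 1 count, untested, and Mitf had 77 to 196 counts.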

Other observations

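Tfeb mRNA was lowest in the library of the earliest passage in all 6 groups. In WT the passage 12 libraries were at 8.76, 6.65 and 8.70 CPM with DMSO, MK-8722 and torin1, and in AMPK KO the passage 16 libraries were at 10.4, 10.6 and 8.63 CPM. The pattern was noticed in the data and was not tested by itself. With a block for passage within each genotype the interaction of MK-8722 with genotype was 0.27 for Tfeb (adjusted p = 0.038 in edgeR), which was not called without it. Deviations from the group mean over all genes correlated with a median r of 0.13 between libraries of the same passage (15 of 24 pairs over 0.1) and of -0.04 between libraries of the same genotype at other passages.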
